A study of Mus musculus with 2 samples.

Results

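The mir-103/mir-107 family of mouse consists of the hairpin genes Mir103-1, Mir103-2 and Mir107, which lie in introns of the pantothenate kinase genes Pank3, Pank2 and Pank1. The members were taken by gene name, and all 3 were found among the 2202 microRNA genes listed in the count tables. Small RNA was sequenced from the left cerebral cortex of 2 females, 10 days old, of the hybrid strain B6CASTF1/J, a first-generation cross of C57BL/6J with the wild-derived CAST/EiJ. The labels describe a single untreated group with biological replicates 1 and 2, called animal 1 and animal 2 here. They name the females separately but give the same donor entry for each, so how far the replicates are independent rests on those names. In this bulk tissue, a change in the number of cells of a type and a change in RNA per cell cannot be told apart.

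Pantothenate kinases catalyse the first, rate-limiting step of coenzyme A synthesis, and mutations of PANK2 in humans cause a neurodegeneration with iron deposits in the brain. MicroRNAs are cut from hairpin transcripts by Drosha and Dicer into a 5p and a 3p arm, and the arm that is loaded into Argonaute pairs with messenger RNAs mainly through its seed, bases 2 to 8. In mammals miR-103 and miR-107 are made in many tissues, brain included. They are known to repress Dicer, to lower insulin sensitivity in mouse liver and fat, and, from work on human brain and cultured cells, to act on the amyloid-processing enzyme BACE1.

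The mature sequences are shown because they decide which reads can be given to a single gene. They come from RefSeq (GRCm38.p6), run 5′ to 3′ and have the seed in capitals; RefSeq had entries for all 3 members.
miR-103-3p (from Mir103-1 and from Mir103-2): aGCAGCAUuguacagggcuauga
miR-107-3p (from Mir107): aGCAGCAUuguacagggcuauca
miR-103-1-5p (from Mir103-1): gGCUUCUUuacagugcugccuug
miR-103-2-5p (from Mir103-2): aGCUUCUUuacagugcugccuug
miR-107-5p (from Mir107): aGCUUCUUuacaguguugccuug

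The 3p arms of the 2 Mir103 genes were identical over all 23 bases. That arm differed from miR-107-3p by 1 substitution, G22C (miR-103-3p first, positions from 1 at the 5′ end), which lies outside the seed. Among 1678 mature arms of listed genes in RefSeq, only these 3 arms had the seed GCAGCAU. The 5p arms also shared a seed, and differed by G1A between miR-103-1-5p and miR-103-2-5p and by C16U between miR-103-2-5p and miR-107-5p.

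The hairpins are shown with the 3p arm in capitals, because the bases around the arm set how long a read must be to tell the genes apart.
Mir103-1: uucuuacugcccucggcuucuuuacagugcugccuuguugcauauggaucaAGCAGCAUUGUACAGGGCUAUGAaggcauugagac
Mir103-2: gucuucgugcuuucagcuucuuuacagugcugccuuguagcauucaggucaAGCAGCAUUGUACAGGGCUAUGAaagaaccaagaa
Mir107: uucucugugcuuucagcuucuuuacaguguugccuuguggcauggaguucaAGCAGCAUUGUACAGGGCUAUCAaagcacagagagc

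Mir103-1 and Mir103-2 matched at 69 of 86 aligned bases (80.2%), and their longest common run was 27 bases, from base 49 of each hairpin. Mir107 matched Mir103-2 at 73 of 87 aligned bases (83.9%) and Mir103-1 at 70 of 87 (80.5%), with a longest common run of 24 bases in each case. A read that begins at the first base of the 3p arm becomes particular to Mir103-1 or to Mir103-2 only at 25 bases, 2 bases past the annotated end of the arm. For Mir107 the same kind of read is found in no other listed hairpin from 22 bases on, so a 3p read of 21 bases or fewer is common to all 3 genes. On the 5p side, reads from the arm's first base are particular to Mir103-2 or to Mir107 from 16 bases, and to Mir103-1 at the shortest length tried, 10 bases. A 5p read lacking its first base is common to Mir103-1 and Mir103-2. Only listed hairpins were searched, not the genome.

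**Figure D1:**
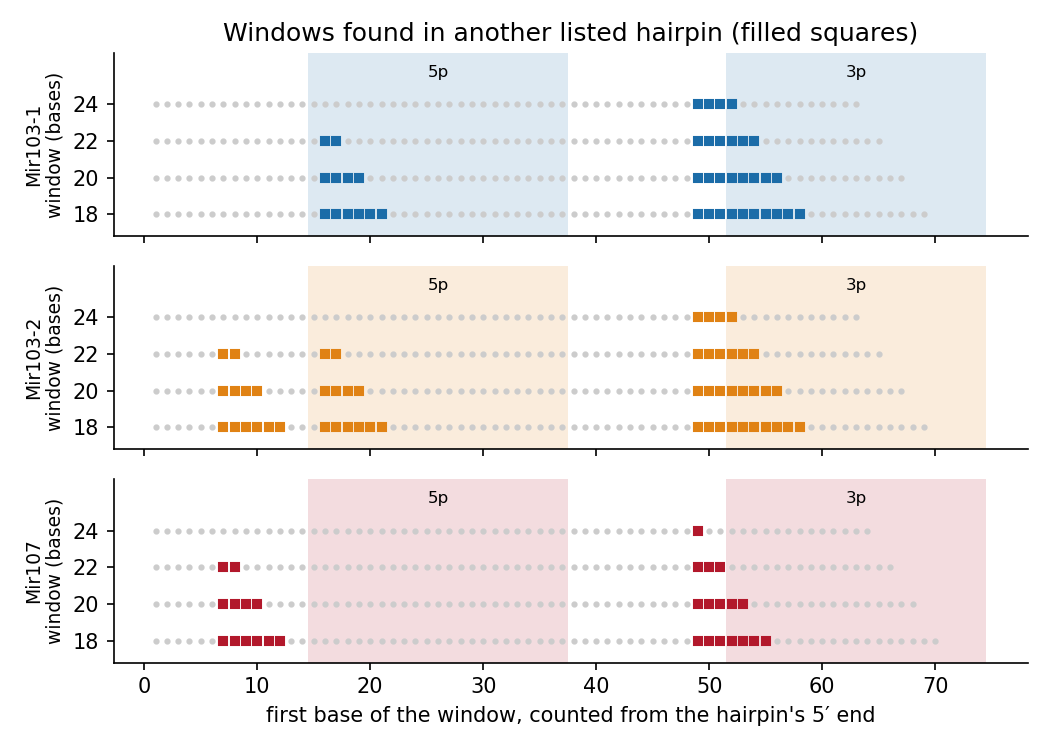
Each row of points gives, for 1 window length (18, 20, 22 or 24 bases, vertical axis), every start position along the hairpin (horizontal axis, bases from its 5′ end); filled squares are windows that occur in another listed hairpin, small dots those that do not, and shaded bands the annotated arms. At 22 bases 8 of 65 windows of Mir103-1, 10 of 65 of Mir103-2 and 5 of 66 of Mir107 were shared, and in all 3 genes shared windows of this length begin at bases 49 to 51, just before the 3p arm, which starts at base 52.

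By predicted folding (RNAfold, minimum free energy), 66 of 86 bases were paired in Mir103-1, 66 of 86 in Mir103-2 and 72 of 87 in Mir107. The energy per base was -0.42 kcal/mol for Mir103-1, -0.37 for Mir103-2 and -0.47 for Mir107, beside a median of -0.37 over the 2202 listed hairpins. Of those hairpins, 380 had a lower energy per base than Mir107, 741 than Mir103-1 and 1093 than Mir103-2.

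All 3 hairpins lie on the strand of their host and in the same intron by number. Mir103-1 (ENSMUSG00000065553.1) lies at chr11:35782396-35782481 in mm10, plus strand, in intron 5 of 6 of the principal Pank3 transcript, 688 bases after the upstream exon and 966 before the next. Mir103-2 (ENSMUSG00000065563.1) lies at chr2:131288052-131288137, plus strand, in intron 5 of 6 of Pank2, 454 bases after the upstream exon and 5261 before the next. Mir107 (ENSMUSG00000065594.1) lies at chr19:34820687-34820773, minus strand, in intron 5 of 6 of Pank1, 326 bases after the upstream exon and 6869 before the next. Intron numbers differ in some other Pank2 and Pank1 transcripts of GENCODE M21. No other annotated gene overlaps any of the hairpins on either strand.

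**Figure D2:**
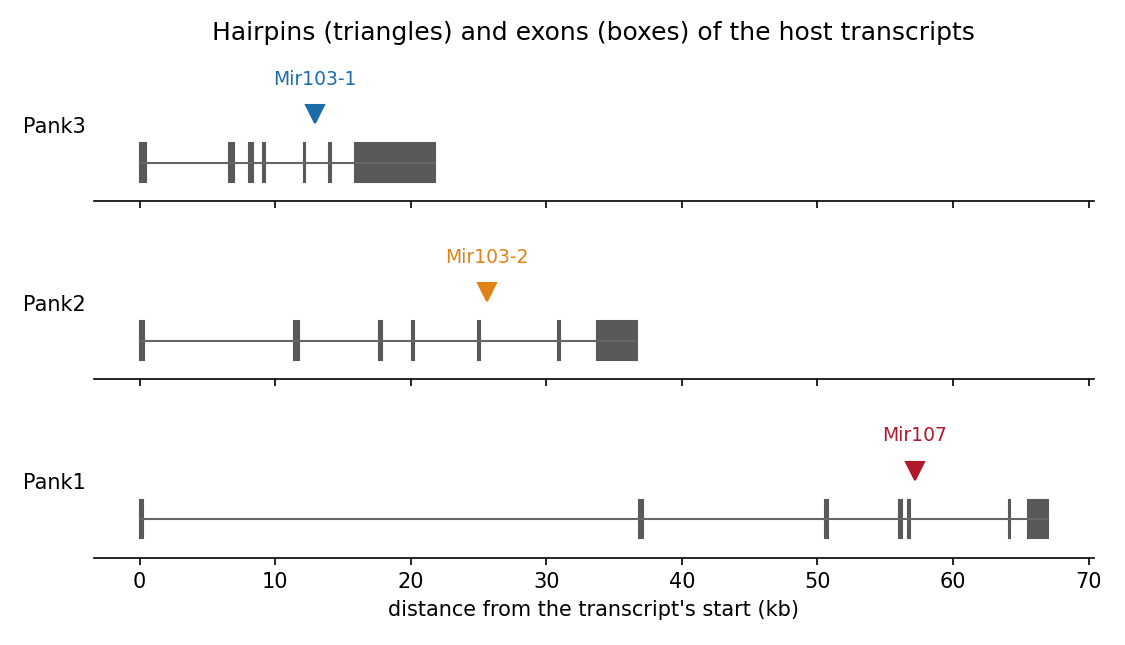
The principal transcripts of Pank3, Pank2 and Pank1 are drawn to scale from their start (horizontal axis, kb), with exons as boxes and the hairpin as a triangle. Each triangle stands in intron 5 of 6, and the introns that hold the hairpins are 1740 bases long in Pank3, 5801 in Pank2 and 7282 in Pank1.

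Nearly all reads counted to the family came from Mir107. Mir107 had 7591 reads in animal 1 and 8687 in animal 2, or 1994 CPM (counted microRNA reads scaled to a library total of 1000000, 95% interval 1950 to 2040) in animal 1 and 3337 CPM (3268 to 3408) in animal 2. Its mean was 2666 CPM ± 949.6 (SD, n = 2), which placed it 68th of the 2202 genes by mean CPM, 77th in animal 1 and 53rd in animal 2. Animal 2 was the higher, and the intervals of the 2 libraries did not overlap.

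Mir103-2 had 102 reads in animal 1 and 89 in animal 2. These are 26.8 CPM (95% interval 21.9 to 32.5) in animal 1 and 34.2 CPM (27.5 to 42.1) in animal 2, a mean of 30.5 CPM ± 5.23 (SD, n = 2) and rank 262. Here the intervals of the libraries overlapped.

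Mir103-1 had 13 reads in animal 1 and 16 in animal 2, or 3.42 CPM (95% interval 1.82 to 5.84) in animal 1 and 6.15 CPM (3.51 to 9.98) in animal 2. Its mean of 4.78 CPM ± 1.93 (SD, n = 2) gave rank 388. It stayed under 10 CPM, the level called detected, which it would have reached with 38.1 reads in animal 1 and 26.0 in animal 2. Mir103-2 and Mir107 were detected in both libraries, so 2 of 3 members were, beside 13.9% of all 2202 listed genes.

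**Figure D3:**
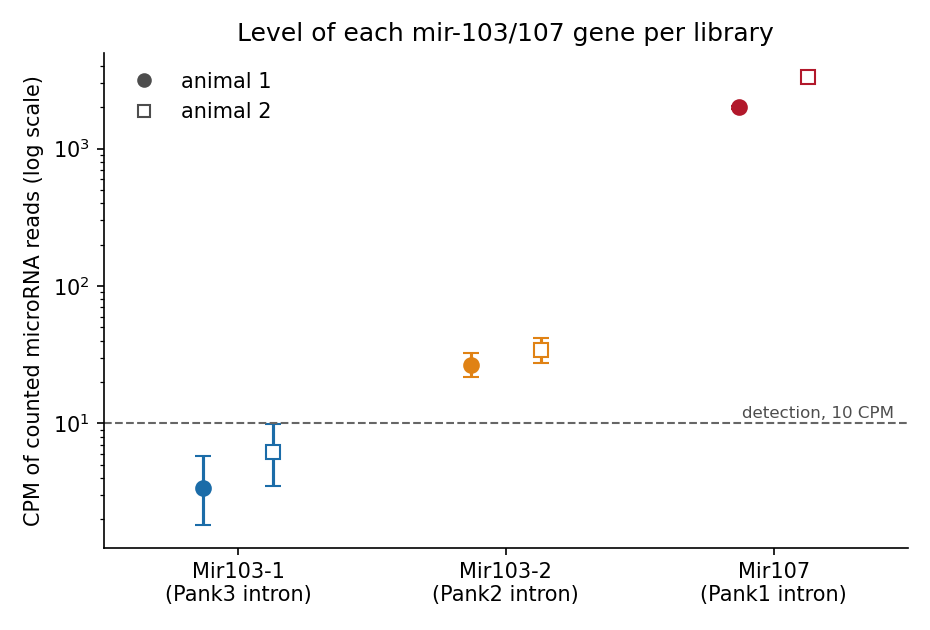
Points give CPM of counted microRNA reads (vertical axis, log scale) for each gene in animal 1 (filled circles) and animal 2 (open squares), with exact 95% intervals for counting error; the dashed line marks detection at 10 CPM. Mir107 stands near 1994 and 3337 CPM, Mir103-2 near 26.8 and 34.2 CPM, and Mir103-1 under the line in both animals.

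The order Mir107 over Mir103-2 over Mir103-1 held in both animals, and no intervals of neighbouring genes overlapped within a library. Mir107 reads were 74.4 times those of Mir103-2 in animal 1 (exact 95% interval 61.2 to 91.4) and 97.6 times in animal 2 (79.2 to 121.7). Mir103-2 reads were 7.85 times those of Mir103-1 in animal 1 (4.39 to 15.2) and 5.56 times in animal 2 (3.24 to 10.2). Each of these ratios had overlapping intervals in the 2 animals.

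Mir107 made up 98.5% of the family's reads in animal 1 (exact interval 98.2 to 98.8) and 98.8% of them in animal 2 (98.6 to 99.0). Mir103-2 supplied 1.32% in animal 1 and 1.01% in animal 2, and Mir103-1 0.169% in animal 1 and 0.182% in animal 2. Summed over its genes, the family took 0.202% of everything counted in animal 1 (exact interval 0.198 to 0.207) and 0.338% in animal 2 (0.331 to 0.345), on average 0.270% ± 0.0957 (SD, n = 2). No read of any member was counted on the opposite strand, which allows at most 0.788 CPM in animal 1 and 1.15 CPM in animal 2.

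The counts of the Mir103 genes hold only reads assigned to 1 place. Multiply mapped reads, 4850682 in animal 1 and 3454278 in animal 2, are totalled separately, and the tables do not divide them by microRNA. The annotated miR-103-3p occurs whole in 2 listed hairpins. With the Mir107 count held fixed, bringing the summed Mir103 count level with it would take 7476 further reads in animal 1. That is 0.154% of the multiply mapped reads, and in animal 2 it is 8582 reads, or 0.248%. These percentages are of all multiply mapped reads of a library, and how many of those were miR-103-3p was not tested. However, 3p reads of Mir107 shorter than 22 bases also occur in the Mir103 hairpins, so Mir107 reads may be among the multiply mapped ones too. The order of Mir107 over the Mir103 genes is therefore an order of reads assigned to 1 place, and the relative amounts of mature miR-103 and miR-107 cannot be read from these counts. The order of Mir103-2 over Mir103-1 has the same limit. A 3p read from the arm's first base is particular to either Mir103 gene only from 25 bases, past the annotated arm of 23. Which Mir103 gene made more miR-103-3p therefore cannot be read from these counts.

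Between the 2 libraries, Mir107 and Mir103-2 were higher in animal 2, and Mir103-1 did not pass the test. The test asks whether 2 libraries differ beyond counting noise, and compares no conditions. After TMM scaling Mir107 had a log2 ratio of animal 1 over animal 2 of -0.95 (exact 95% interval -0.99 to -0.90), which is 1.93-fold higher in animal 2, with an adjusted p of 5.2e-378 by the exact binomial test over 531 genes. Mir103-2 had -0.56 (-0.98 to -0.13), or 1.47-fold higher in animal 2, with an adjusted p of 0.0188 by the same exact test. For Mir103-1 the log2 ratio was -1.04 (-2.23 to 0.10), with an adjusted p of 0.0994 by the same exact test; its interval includes the ratios of the other two.

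Such differences were common: 51.6% of the 531 tested genes passed the test, and 24.7% passed it as higher in animal 2. Of the members 2 of 3 were called, both as higher in animal 2, and 3 genes are too few to set apart from that background. The call of Mir103-2 depended on the scaling. With library totals only, its log2 ratio was -0.35 and its adjusted p 0.167 by the exact test, while Mir107 kept its call at -0.74. That scaling moved the median log2 ratio of all tested genes to 0.25, against 0.04 with TMM and -0.01 with DESeq2 size factors, and the share of calls that were higher in animal 2 to 32.5%, against 47.8% with TMM and 53.3% with DESeq2 size factors.

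Measured against the spread of all 531 tested genes, whatever their level, the members were not extreme. A larger absolute log2 ratio than that of Mir107 was found in 135 of 531 genes (25.4%), than that of Mir103-2 in 246 (46.3%) and than that of Mir103-1 in 117 (22.0%); the median absolute log2 ratio was 0.51. The common biological coefficient of variation was 38.0%. Among the 102 tested genes at a mean of 1000 CPM or more, where Mir107 belongs, 30 were called higher in animal 1 and 62 in animal 2. The median absolute log2 ratio of these 102 genes was 0.39, and Mir107 had a log2 ratio of -0.95. The place of Mir107 among genes of that level was not counted.

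Markers of other cell types also differed between the libraries. Endothelial Mir126a stood at 28913 CPM in animal 1 and 8265 CPM in animal 2, and oligodendrocyte Mir219a-2 at 566 CPM in animal 1 and 974 CPM in animal 2. The neuronal Mir128-1, at 15292 CPM in animal 1 and 17136 CPM in animal 2, and Mir132, at 6522 and 6973 CPM, were abundant. So was the neuronal Mir137, at 9278 CPM in animal 1 and 7888 CPM in animal 2, which was called higher in animal 1. In contrast, Mir124a-1, a multi-copy neuronal gene, had 13 and 7 reads. The remaining neuronal marker, Mir9-3, had 87.5 CPM in animal 1 and 168 CPM in animal 2, which is 2.21-fold higher in animal 2 after TMM scaling. Of the 5 neuronal markers, 1 was called higher in animal 1 and 3 in animal 2, and of the 2 oligodendrocyte markers 2 in animal 2, beside 51.6% of all tested genes called and 24.7% called higher in animal 2. Erythroid Mir451a was higher in animal 1, at 27.9 CPM against 9.60 CPM in animal 2. Skeletal muscle Mir206, at 20.8 CPM in animal 1 and 28.0 CPM in animal 2, was called higher in animal 2. Mir204 of the choroid plexus and Mir122 of liver were not called. The part of cell composition in the family's values was not tested.

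Counts close to those of the members were found in genes of other families. By distance in log2(CPM + 0.5) over the 2 libraries, the genes most like Mir107 were Mir93 (9272 reads in animal 1 and 8459 in animal 2, distance 0.29) and Mir17 (9396 and 8709 reads, 0.31), which belong to clusters known for promoting cell proliferation. Those nearest to Mir103-2 were Mir1968 (95 and 94 reads, 0.13) and Mir7j (88 and 95 reads, 0.23). Next to Mir103-1 stood Mir3066 (15 and 16 reads, 0.18) and Gm26117 (15 and 15 reads, 0.20). With only 2 libraries, likeness of this kind is mainly likeness of level. By mean CPM, Mir138-1 (2668 CPM) ranked directly above Mir107 and Mir195a (2652 CPM) directly below, Mir1968 and Mir9-1 enclosed Mir103-2, and Mir7016 and Mir7031 enclosed Mir103-1.

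The mir-15/mir-107 group holds further microRNAs with the bases AGCAGC near the 5′ end. In miR-103 and miR-107 the run starts at base 1, and in the 5p arms of the others at base 2, so their seeds are offset by 1 base. Examples from RefSeq are given with the run in capitals.
miR-15a-5p: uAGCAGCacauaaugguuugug
miR-16-5p: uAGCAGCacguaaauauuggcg
miR-195a-5p: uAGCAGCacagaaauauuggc
miR-322-5p: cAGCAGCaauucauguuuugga
miR-497a-5p: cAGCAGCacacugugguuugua

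Of the 10 other listed genes of the group, 8 were detected, at a median of 618 CPM over the 10, beside 307 detected (13.9%) and a median of 0 CPM over all 2202 genes. Mir497b, on the strand opposite Mir497, has no RefSeq arm with the run, and without it the median of the other 9 was 949.6 CPM. Mir195a had 4724 CPM in animal 1 and 580.5 CPM in animal 2, so it stood above Mir107 in animal 1 and below it in animal 2. Mir322, clustered with Mir503 on the X chromosome, had 1540 CPM in animal 1 and 2331 CPM in animal 2. Mir497, counted on its own strand, had 1255 CPM in animal 1 and 837 CPM in animal 2, and Mir15a, a regulator of BCL2 in human cells, 1595 CPM in animal 1 and 376.5 CPM in animal 2. Of the 8 tested, 5 were called higher in animal 1 and 2, Mir322 and Mir16-2, in animal 2, by the exact test over all genes; Mir503 was not called. Over all 531 tested genes 51.6% were called, 143 higher in animal 1 and 131 in animal 2. The median log2 ratio of the 8 was 0.61, while all 3 members of the mir-103/mir-107 family had negative ratios; no test of that difference was made.

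**Figure D4:**
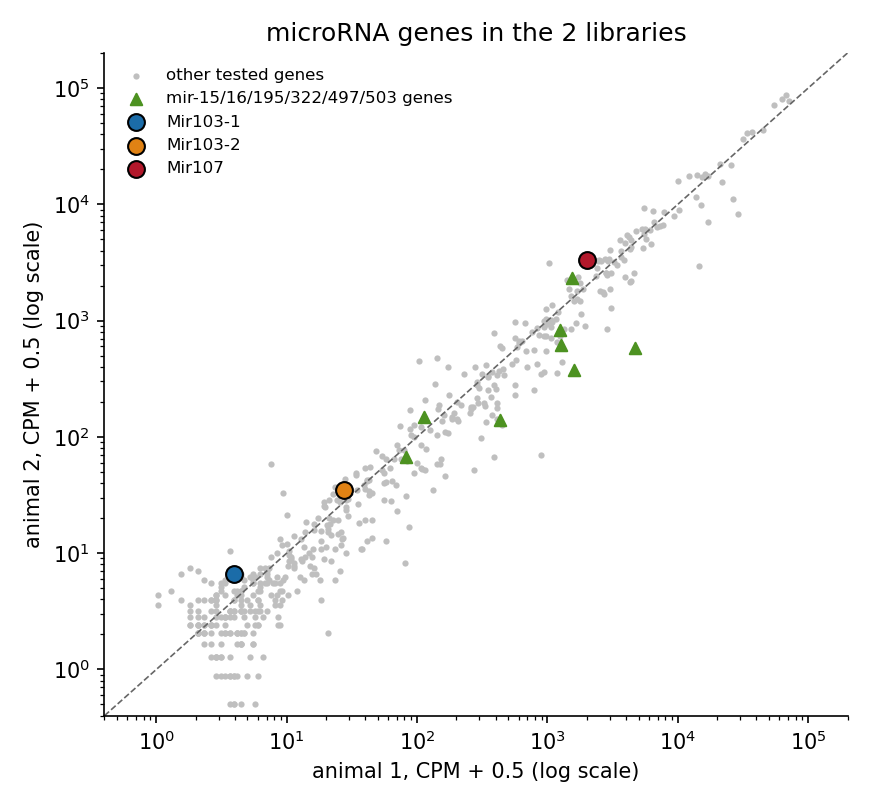
Each point is 1 of the 531 tested genes, with CPM + 0.5 in animal 1 on the horizontal and in animal 2 on the vertical axis (log scales, no TMM); the dashed line marks equal values. Mir103-1, Mir103-2 and Mir107 lie slightly above the line, while most of the green triangles, the listed Mir15, Mir16, Mir195, Mir322, Mir497 and Mir503 genes, lie below it, Mir195a farthest.

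Levels were then set beside the sharing of arms over all genes. RefSeq arms could be placed for 1018 of the listed genes: 904 had no arm that occurs whole in another listed hairpin, Mir107 among them, 61 had 1 of 2 arms shared, Mir103-1 and Mir103-2 among them, and 53 had every arm shared. A gene with only 1 annotated arm, such as Mir219a-2 or Mir129-1, falls in the last class when that arm is shared. The classes thus depend on the annotation too. Detected genes made up 26.7% of those with no arm shared, 55.7% of those with 1 of 2 shared and 11.3% of those with every arm shared. Among detected genes the median was 378 CPM with no arm shared, 128 CPM with 1 of 2 shared and 273 CPM with every arm shared. In the class with no arm shared 848 of 904 genes were below Mir107. In the class with 1 of 2 shared, 31 of 61 were below Mir103-2 and 22 below Mir103-1, undetected genes included. Only 34 of the 61 were detected, and their median of 128 CPM was above the 30.5 CPM of Mir103-2. The part of read assignment in these levels was not tested.

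Levels varied widely among genes with 1 of 2 arms shared. A list of 10 genes from duplicated families, most of them in introns of related protein genes, had 8 detected and a median of 77.3 CPM. Of its genes, Mir26b and Mir153 have no arm shared, so these values are not those of shared arms alone. Of its 10 tested genes, 2 were called higher in animal 1 and 4 in animal 2. Over all genes, 13.9% were detected and 51.6% of those tested were called, so 6 calls of 10 are near the background. Mir128-1, with 1 of 2 arms shared, had 16214 CPM ± 1304 (SD, n = 2), and its copy Mir128-2 5851 ± 309.9. Mir7-2, also with 1 of 2 arms shared, had 171 CPM ± 50.2. The mir-26 genes, hosted by the phosphatase genes of the Ctdsp family, were picked out after their values were seen, so their order is no support for a pattern. Mir26b, with no arm shared, had 4721 CPM ± 670.8, whereas Mir26a-2 had 38.5 ± 0.602 and Mir26a-1 32.4 ± 35.7, each with 1 of 2 arms shared. In the same list Mir153, with no arm shared, had 97.1 CPM ± 27.6, below both Mir128 genes. Mir26a-1 had 27 reads in animal 1 and 150 in animal 2, and so was over 10 CPM in animal 2 only.

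**Figure D5:**
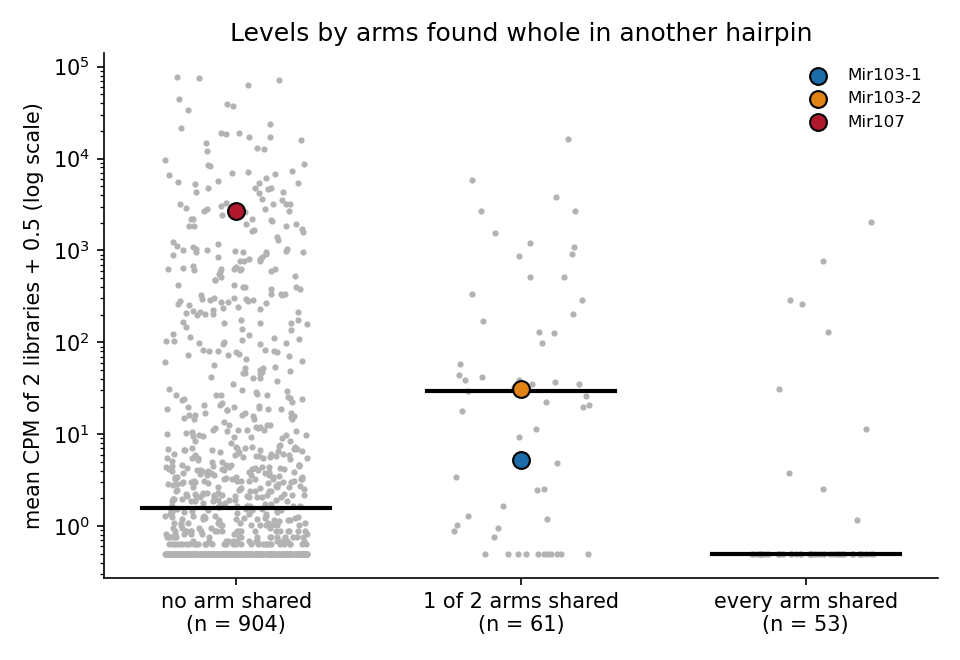
Points are 1018 genes by mean CPM of the 2 libraries + 0.5 (vertical axis, log scale), grouped by how many of their annotated arms occur whole in another listed hairpin; bars are medians over all genes of a class. Mir107 lies high in the class with no arm shared, and Mir103-2 at the middle of the class with 1 of 2 arms shared, undetected genes included, with Mir103-1 under it.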

How the data were processed

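The deposited tables hold whole-number read counts per hairpin gene, so reads of both arms are summed. Reads were assigned on mm10 with GENCODE M21, per the notes deposited with each table; aligner and counter: not given in the sources used here. All 2202 gene IDs matched the M21 annotation, and own-strand counts were used. Counted reads were 3806078 of 11350270 (33.5%) in animal 1 and 2602935 of 8551277 (30.4%) in animal 2. The 4 summary rows of each table stayed out of library sizes: unmapped reads (17.9% and 23.5% in animals 1 and 2), multiply mapped reads (42.7% and 40.4%), reads outside genes (5.79% and 5.62%) and ambiguous reads (0 and 0 on the own strand).

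From these counts, CPM and exact Clopper-Pearson 95% intervals were computed; a count of 0 allows up to 3 counts. Intervals and floors cover counting error of reads only. No molecular identifiers are recorded, so duplicate reads could not be removed and the intervals may be too narrow. The libraries were compared by an exact conditional binomial test, two-sided, given TMM effective sizes (factors 1.07 and 0.932; edgeR 4.0.16, R 4.3.3), over the 531 genes with at least 10 counts, with 0.5 added to counts in log2 ratios and Benjamini-Hochberg adjustment at 0.05. edgeR's quasi-likelihood test has no contrast in a single group, so edgeR gave only the factors and the coefficient of variation; size factors of DESeq2 1.42.0 were an alternative. Sequences are from RefSeq (GRCm38.p6) and, for all hairpins, GENCODE M21. Python 3.11.15, scipy 1.17.1, Biopython 1.88 and RNAfold 2.7.2 were used.

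Members, lists and tests were chosen with earlier results of these data known. The group median without Mir497b was added after its values were seen. Named are all members, for each the 2 genes nearest in log2(CPM + 0.5) and its neighbours in rank, up to 4 genes of each list by mean CPM, and cell type markers.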

Additional observations from a re-analysis of the deposited data

Results flagged for a closer look

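Reads that map to several positions lie outside the counts per gene: 4850682 in animal 1 and 3454278 in animal 2. Over all genes that is 1.27 multiply mapped reads for each counted read in animal 1, and 1.33 in animal 2. Set against the counted reads of the mir-103/mir-107 family alone, the same totals give 629 in animal 1 and 393 in animal 2. These library-wide totals are not particular to the family. How many of the multiply mapped reads were miR-103-3p, which occurs in 2 listed hairpins, was not tested.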

How the results depend on the processing

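With multiply mapped reads added to the denominator, mean levels were 1156 CPM for Mir107, 13.2 for Mir103-2 and 2.07 for Mir103-1, and the family's share was 0.117%. Over all reads in the table they were 842 CPM, 9.70 CPM, 1.51 CPM and 0.0854%, by construction of the denominator. The number of members detected was 3 at 1 CPM, 1 at 100 CPM and 1 at 1000 CPM. The share of all 2202 listed genes, 13.9%, is for 10 CPM only. The counts of members at the other levels therefore have no background beside them. Leaving out each animal in turn gave 1994 to 3337 CPM for Mir107, 26.8 to 34.2 for Mir103-2 and 3.42 to 6.15 for Mir103-1. With library totals only, Mir103-2 lost its call (log2 ratio -0.35, adjusted p = 0.167 by the exact test); over its other alternatives its adjusted p ran from 0.0093 to 0.0494. Mir107 kept its call and Mir103-1 its lack of one under every alternative run; Mir103-1 could not be tested at a minimum of 100 counts. The genes called different numbered 238 to 280, against 274. The number tested changed as well: 238 of 307 were called at a minimum of 100 counts, and 265 of 770 without a filter. The main run had 274 of 531, so the called share depends on the filter. The unstranded column changed no call of the 3 members, while it gave 249 called genes of 507 tested. No paired analysis was possible because there is a single group. With 13 and 16 reads, depth limits Mir103-1: its interval reaches from a log2 ratio of -2.23 to 0.10.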

Other observations

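The run AGCAGC begins at base 1, 2 or 3 in 15 of 1678 RefSeq arms of listed genes. Besides the 3 members and 9 genes of the mir-15/mir-107 group, these are arms of Mir6342, Mir6353 and Mir6419, named after their values were seen. None of these 3 genes had a counted read in either library, nor had Mir195b of the group.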
